A study of Mus musculus with 15 samples.

Results

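The comparison described here is that of Rpl5 mutant with wildtype erythroid progenitors in group 2 of the mice, 3 libraries of each, chosen by the labels that name group, genotype and replicate. These 6 of the 15 libraries in the series were read across all genes. The cells came from the fetal liver of mouse embryos at E12.5, all on the 129S6/SvEvTac strain, and neither genotype is labelled with a treatment. The labels give the genotypes only as WT and M, and the deposited sample sheet names the mutants Rpl5plusSkax23Jus and the controls wildtype. The RNA of these 6 libraries is labelled total RNA. The same group of mice also holds 3 mutant libraries labelled low-yield, a term the labels leave undefined, and these are not described. They entered the fit to help estimate the spread between libraries. They also bore on the scaling and on which genes were tested (15024 with them, 14413 without). Group 1 holds 3 wildtype and 3 mutant libraries made from polyA RNA, and its values are set beside those of group 2 where stated. Nothing in the labels says whether a library came from 1 embryo or from a pool, or whether replicates came from separate litters, so the p-values measure only the spread between these libraries.

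Rpl5 is a protein of the large ribosomal subunit. With Rpl11 and a small ribosomal RNA it forms a particle that, when ribosome assembly is disturbed, binds Mdm2 and keeps it from marking the transcription factor p53 for destruction. Loss-of-function mutations in RPL5 are a cause of Diamond Blackfan anemia in people, in which the bone marrow makes too few red cells. The fetal liver is the main site of red cell formation at this stage, and its erythroid progenitors turn on globin, heme synthesis and membrane skeleton genes under the transcription factors Gata1 and Klf1 as they mature. The title of the study names lipid metabolism beside this disease, so lipid genes are given as groups of their own.

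The libraries held between 24954324 and 44827821 expected counts, and between 17224 and 19095 genes had a count in each. Erythroid genes were abundant in all 6, in CPM (each gene's counts relative to its library's total, after TMM normalisation), with Gata1 between 347 and 407 CPM and Klf1 between 565 and 871 CPM. On the first principal component of the group 2 libraries, which held 28.4% of the variance, the wildtype libraries lay between -52.5 and -35.8 and the mutant libraries between 12.4 and 21.5. On the second, which held 20.3%, replicate 1 of wildtype (55.3) and of mutant (40.9) lay apart from the other 4, which lay between -40.9 and -0.2. Replicate 2 of each genotype was the one with Y-linked transcripts, at a sum of 118 CPM in wildtype and 146 CPM in mutant against at most 0.1 CPM in the other 4.

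Of 55487 genes in the table, 15024 had enough counts to be tested, and 942 of these (6.27%) passed an adjusted p of 0.05, here termed called. The called genes divided into 499 that were higher (3.32% of the genes tested) and 443 that were lower (2.95%) in the mutant. Changes of at least 1 on the log2 scale were more often increases, 197 against 74. Increases were more often among genes with few counts: the median CPM, which is not scaled to gene length, was 15.1 for protein-coding genes that rose, 58.9 for those that fell and 27.0 for those not called. The median exonic length of these 3 sets was 5283, 4406 and 4442 bases. Between 1 and 10 CPM, 162 genes rose and 51 fell, whereas above 100 CPM 65 rose and 135 fell. Protein-coding genes made up most of the calls, 905 of 11969 tested (7.56%), against 23 of 2138 long noncoding or unclassified genes (1.08%) and 12 of 864 pseudogenes (1.39%). By a plain comparison of ranges, 1721 genes (11.5%) had all 3 mutant values above all 3 wildtype values and 1770 (11.8%) had them all below. Across 21 alternative fits (2 of them added after the data were seen), 282 of the 942 genes (148 higher, 134 lower) were called wherever they were tested, and none of the 942 changed sign. The number of calls depended on single libraries. It was 425 without wildtype replicate 2, 480 without wildtype replicate 3, 439 without mutant replicate 1 and 433 without mutant replicate 3, and it was 1323 without wildtype replicate 1.

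**Figure D1:**
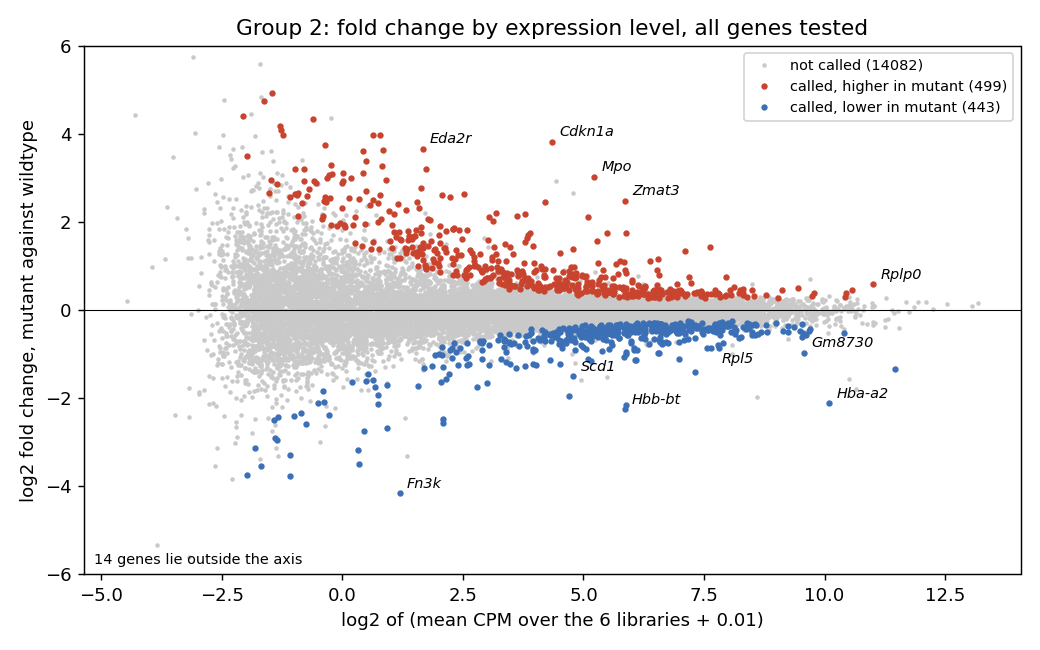
Fold change of every gene tested in group 2 (log2, mutant over wildtype, vertical axis) against its mean level (log2 of CPM over the 6 libraries, horizontal axis). Genes with an adjusted p under 0.05 are red where higher (499) and blue where lower (443) in the mutant, and all others are grey, and called genes of both directions occur over most of the range of levels.

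Rpl5 itself read 324, 303 and 374 CPM in wildtype and 232, 248 and 248 CPM in mutant libraries. No mutant value reached the lowest wildtype value, and the log2 fold change was -0.46 (SE 0.10, adjusted p = 0.0117). The call was lost without wildtype replicate 3 (adjusted p = 0.0597) or without mutant replicate 1 (adjusted p = 0.063). Rpl5 lies on chromosome 5 at 107900502 to 107909005 (GRCm38), and 24.3% of its exonic bases are shared with a gene on the opposite strand, whose reads cannot be told apart since the use of strand in counting is not given in the sources used here. Gm15500, a processed copy on chromosome 7 that shares 100% of its 31-base words with Rpl5 and so is not counted independently of it, fell by 0.39 on the log2 scale (adjusted p at most 0.1 without a single library). Rpl5 summed with its near-identical copies fell by 0.41 (adjusted p = 0.00912, an alternative added after the data were seen).

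Several of the increases with the smallest p were in targets of p53, the transcription factor that halts the cell cycle or starts cell death after stress. Of 13 tested targets that act in cell cycle arrest, 5 rose and 1 fell. The median change of this list was -0.16, since 7 of the 13 members had changes below 0, of which 1 passed the test. Without wildtype replicate 1 this median was 0.17. All 13 tested targets that act in cell death had changes above 0, with a median of 0.57, and 6 of them rose. Over all genes tested the median change was -0.01. Among 16 tested targets listed under metabolism and DNA repair, 2 rose, including the microtubule-binding protein Psrc1. These counts stand beside 3.32% of all genes tested that rose and 2.95% that fell.

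Zmat3, which encodes an RNA-binding protein that controls splicing, had the smallest adjusted p of all genes. It read 18.3, 17.4 and 17.6 CPM in wildtype and 95.8, 91.5 and 110 CPM in mutant libraries, a change of 2.48 (SE 0.11, adjusted p = 8.19e-09), or 5.58-fold. Cdkn1a, the p21 inhibitor of cyclin-dependent kinases, read 2.72, 3.44 and 2.05 CPM in wildtype and 26.9, 36.2 and 50.8 CPM in mutant libraries. Its mean of 2.74 ± 0.69 (SD, n = 3) in wildtype and 37.9 ± 12.1 (SD, n = 3) in mutant gave the largest increase among genes with a mean of at least 2 CPM and separate ranges, 3.82 (SE 0.31, adjusted p = 0.000189), or 14.2-fold. Ccng1, a cyclin that restrains growth, was already abundant in wildtype at 95.4, 108 and 116 CPM and read 302, 268 and 294 CPM in the mutant, a change of 1.44 (SE 0.09). The kinase Plk2 rose by 2.94 (SE 0.47) from at most 0.75 CPM in wildtype to between 2.97 and 3.98 CPM. Gadd45a, a growth arrest gene named for its induction by DNA damage, fell by 0.54, from between 29.7 and 33.6 CPM to between 19.1 and 25.8 CPM.

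Eda2r, a death receptor of the tumor necrosis factor family, read 0.44, 0.23 and 0.65 CPM in wildtype and 4.77, 6.99 and 5.89 CPM in mutant libraries. Its change of 3.67 (SE 0.36, adjusted p = 5.45e-05) was the next largest after that of Cdkn1a among called genes with a mean of at least 2 CPM and separate ranges. Bbc3, the BH3-only killer also known as PUMA, read 6.20, 7.14 and 6.91 CPM in wildtype and 15.6, 17.6 and 15.8 CPM in the mutant. This change of 1.27 (SE 0.15) was accompanied by one of 1.10 (SE 0.15) in Phlda3, an inhibitor of Akt signalling, and one of 0.59 (SE 0.10) in Aen, a nuclease. Tnfrsf10b, the receptor for the death ligand TRAIL, rose by 0.83, and Bax, the pore-forming member of the BCL2 family, by 0.40. The 2 that rose in the list of metabolism and DNA repair were Psrc1 and Ddit4. Psrc1, a microtubule-binding p53 target, rose by 1.76 (SE 0.14, adjusted p = 9.83e-06) from between 19.1 and 21.4 CPM to between 55.3 and 77.0 CPM, and Ddit4, an inhibitor of mTOR, by 1.60. Of the BCL2 family, 12 members were tested and 33.3% were called, beside 6.27% of all genes tested. Bax and Bbc3 rose while the BH3-only genes Bcl2l11 (BIM) and Bad fell, by 0.53 and 0.42.

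Among 11 tested genes of p53 and its regulators, Rpl5 was the one that was called. Trp53, the gene of p53 itself, read between 302 and 333 CPM in wildtype and between 314 and 365 CPM in mutant libraries (0.11, adjusted p = 0.487). Mdm2, a target as well as the main inhibitor of p53, read 49.0, 54.8 and 61.9 CPM in wildtype and 62.3, 74.6 and 68.9 CPM in mutant libraries. Its mutant values all lay above the wildtype values, but the change of 0.31 (SE 0.10) missed the threshold in edgeR (adjusted p = 0.0832) and passed it in limma-voom (0.03823). Rpl11 had a change of 0.05 (SE 0.10, adjusted p = 0.836), which was -0.02 without wildtype replicate 2. Cdkn1a, Zmat3, Ccng1, Plk2, Eda2r, Bbc3, Phlda3, Aen and Psrc1 stayed past the threshold in every alternative in which they were tested, which for Plk2 and Eda2r leaves out the filter at a mean of 5 CPM. In fits that left out 1 library, the adjusted p rose to at most 0.143 for Gadd45a, 0.0882 for Tnfrsf10b, 0.199 for Bax, 0.0867 for Ddit4, 0.0983 for Bcl2l11 and 0.135 for Bad, so these 6 calls depend on single libraries. The count of 4 calls in the BCL2 family was 1 without wildtype replicate 2, wildtype replicate 3 or mutant replicate 3, and 2 without mutant replicate 1, low-yield replicate 1 or low-yield replicate 2.

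**Figure D2:**
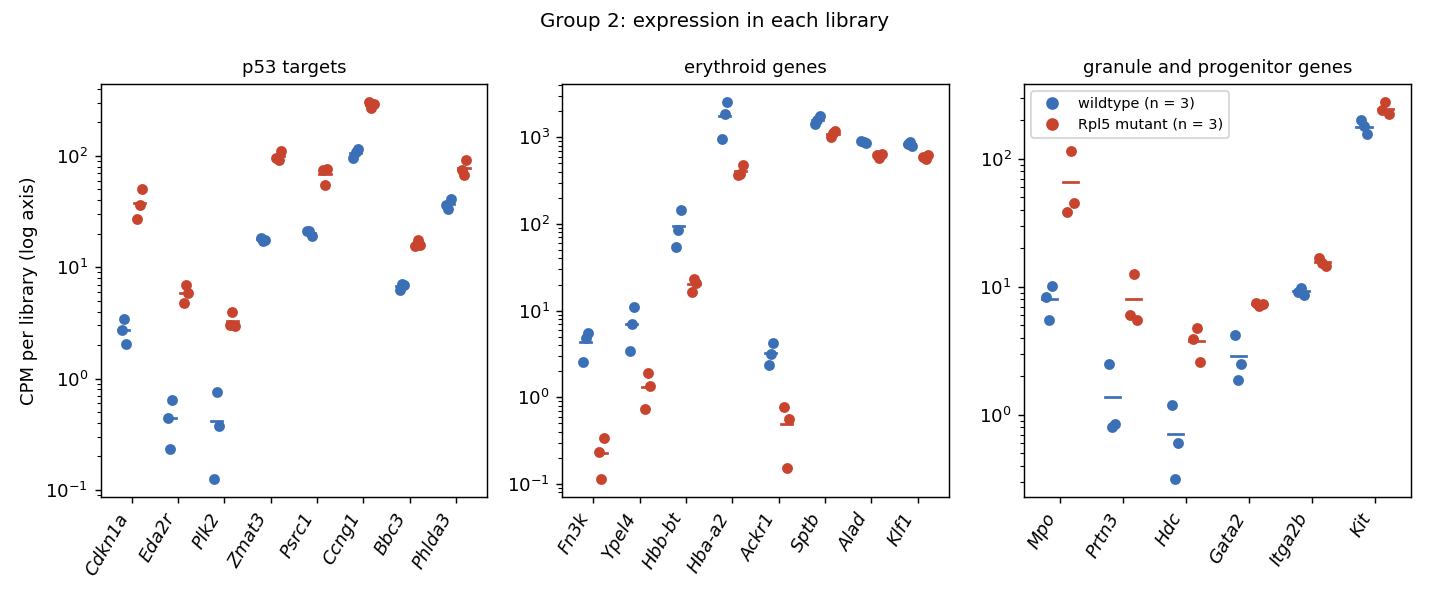
Expression in each of the 3 wildtype (blue) and 3 mutant (red) libraries, as CPM on a log axis, with the group mean as a short line. The 22 genes were picked from those called, so the lack of overlap between the groups follows from the choice. Over all genes tested, 11.5% had separate ranges with the mutant higher and 11.8% with the mutant lower. The p53 targets drawn are higher, the erythroid genes lower and the granule and progenitor genes higher in the mutant. Members of the same lists that moved otherwise or overlapped, such as Gadd45a, Add3, Car1, Gata1 and Spi1, are not drawn.

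The promoters of 5 called genes are shown, those of 3 p53 targets that rose and of 2 erythroid genes that fell, so that motifs can be looked for in them. Sequences are from RefSeq (GRCm38.p6), 250 bases before to 50 bases after the annotated start, on the strand of the gene: Cdkn1a at chr17:29090729-29091028 (+), Ccng1 at chr11:40755237-40755536 (-), Eda2r at chrX:97377160-97377459 (-), Ypel4 at chr2:84733954-84734253 (+) and Hbb-bt at chr7:103813874-103814173 (-). Capitals mark matches on either strand to AGATAA (the core bound by GATA factors), CCACACCC (bound by Klf1), CCAAT (bound by the factor NF-Y), TATAAA (bound by the basal transcription machinery) or the 20-base p53 consensus with no spacer and at most 1 mismatch. ATTGG is CCAAT read on the other strand.
Cdkn1a: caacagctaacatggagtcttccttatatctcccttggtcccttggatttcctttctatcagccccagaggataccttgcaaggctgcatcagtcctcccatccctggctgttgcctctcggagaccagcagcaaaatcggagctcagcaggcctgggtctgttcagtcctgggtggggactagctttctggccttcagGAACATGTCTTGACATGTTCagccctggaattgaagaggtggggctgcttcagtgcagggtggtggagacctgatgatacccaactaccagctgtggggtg
Ccng1: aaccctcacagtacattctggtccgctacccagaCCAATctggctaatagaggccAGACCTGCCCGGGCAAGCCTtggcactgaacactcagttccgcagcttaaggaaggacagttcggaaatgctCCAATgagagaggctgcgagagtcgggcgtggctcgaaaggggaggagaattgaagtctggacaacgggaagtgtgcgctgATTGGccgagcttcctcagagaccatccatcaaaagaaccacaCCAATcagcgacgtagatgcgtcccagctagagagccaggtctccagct
Eda2r: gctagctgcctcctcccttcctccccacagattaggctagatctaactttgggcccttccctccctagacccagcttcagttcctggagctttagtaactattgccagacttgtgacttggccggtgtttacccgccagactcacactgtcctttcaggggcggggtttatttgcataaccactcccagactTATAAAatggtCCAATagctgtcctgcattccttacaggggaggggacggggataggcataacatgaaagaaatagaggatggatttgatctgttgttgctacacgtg
Ypel4: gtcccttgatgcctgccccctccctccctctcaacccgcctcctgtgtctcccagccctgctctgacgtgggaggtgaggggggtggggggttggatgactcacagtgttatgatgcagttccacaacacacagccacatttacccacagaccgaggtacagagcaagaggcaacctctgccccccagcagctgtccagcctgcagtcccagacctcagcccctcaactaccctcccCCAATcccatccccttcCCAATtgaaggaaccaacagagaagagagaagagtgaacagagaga
Hbb-bt: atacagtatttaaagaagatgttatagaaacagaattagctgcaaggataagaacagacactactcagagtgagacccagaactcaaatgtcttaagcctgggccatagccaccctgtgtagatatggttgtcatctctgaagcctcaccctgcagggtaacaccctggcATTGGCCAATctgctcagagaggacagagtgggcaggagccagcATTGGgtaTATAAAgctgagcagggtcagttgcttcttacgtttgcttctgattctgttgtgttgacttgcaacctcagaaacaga
The p53 match of Cdkn1a begins 51 bases before the start and that of Ccng1 195 bases before it, and Eda2r held none. The promoters of Psrc1, Irgm2 and Hmga2 were picked by the same rule and are not printed. That of Psrc1, also a p53 target that rose, held CCAAT and no p53 match, and those of Irgm2 and Hmga2 held none of the motifs. The mismatch was allowed after these sequences had been seen, since no tested gene with a promoter entry held the exact consensus. With at most 1 mismatch the motif was in 25 of all 27025 promoters in the table (0.0925%). Among the 10099 tested genes with an entry it was in 5 (0.0495%), which were Ccng1, Cdkn1a, Gtse1, Mthfd1 and Calhm2. The first 3 of these are among the 397 higher genes with an entry, and none of the 354 lower genes with an entry held it. Gtse1, which carries p53 out of the nucleus, rose by 0.30 (adjusted p = 0.0483, and up to 0.207 without a single library). AGATAA was in 6.48% of tested, 6.3% of higher and 10.2% of lower genes' promoters, and in 11.4% of all promoters. CCACACCC was in 3.92%, 4.53% and 4.52% of the same 3 sets and in 3.57% of all promoters. These are matches of letters in a 300-base window and say nothing of binding.

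Genes of red cell maturation were read in lists of globins, heme and iron genes, transcription factors, membrane proteins and organelle clearance, and in most of these lists the members that passed the test were fewer than those that did not. Hba-a2, an alpha globin gene, read 966, 1850 and 2522 CPM in wildtype and 370, 380 and 477 CPM in mutant libraries, a change of -2.12 (SE 0.42, adjusted p = 0.0385). Hbb-bs, an adult beta globin gene, read 2742, 4185 and 5233 CPM in wildtype and 1410, 1548 and 1875 CPM in mutant libraries (-1.33, SE 0.25, adjusted p = 0.0228). Hbb-bt, which shares most of its sequence with Hbb-bs, read 54.4, 85.8 and 146 CPM in wildtype and 16.6, 23.0 and 20.9 CPM in mutant libraries (-2.25, SE 0.38). The embryonic beta-like gene Hbb-bh1 went the other way, from 17.8, 23.8 and 17.9 CPM to 28.2, 41.9 and 35.2 CPM (0.83, SE 0.18, adjusted p = 0.0209). The embryonic alpha-like gene Hba-x had a change of 0.08 (SE 0.38) with overlapping values. The other 6 globin genes tested had changes below 0, among them the embryonic beta-like gene Hbb-y, which was not called.

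Of the 8 globin genes tested, 3 fell and 1 rose (50% called, beside 6.27% of all genes tested), with a median change of -1.39. Hba-a1, which shares 93.3% of its 31-base words with Hba-a2, had a change of -1.57 that missed the threshold in edgeR (adjusted p = 0.0803) and passed it with DESeq2 (0.001191), limma-voom (0.02412) and without wildtype replicate 1 (0.01353). With near-identical copies summed, an alternative added after the data were seen, the list had a median of -0.87 and 2 calls, and the alpha globins, entered as Hba-a2, were not called (adjusted p = 0.0579). Wildtype replicate 1 held the lowest globin level of its group, with a sum of 5148 CPM over the listed globins against 8837 and 11336 CPM in the other wildtype libraries, and still lay above the 2767, 3023 and 3503 CPM of the mutant libraries. The calls depended on single libraries: 4 genes were called with all libraries present, 0 without mutant replicate 2, 1 without wildtype replicate 2, mutant replicate 1 or mutant replicate 3, and 2 without wildtype replicate 3. The highest adjusted p of these fits was 0.154 for Hba-a2, 0.115 for Hbb-bs, 0.09 for Hbb-bt and 0.101 for Hbb-bh1. In bulk RNA, fewer cells at a stage and less RNA per cell cannot be told apart.

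**Figure D3:**
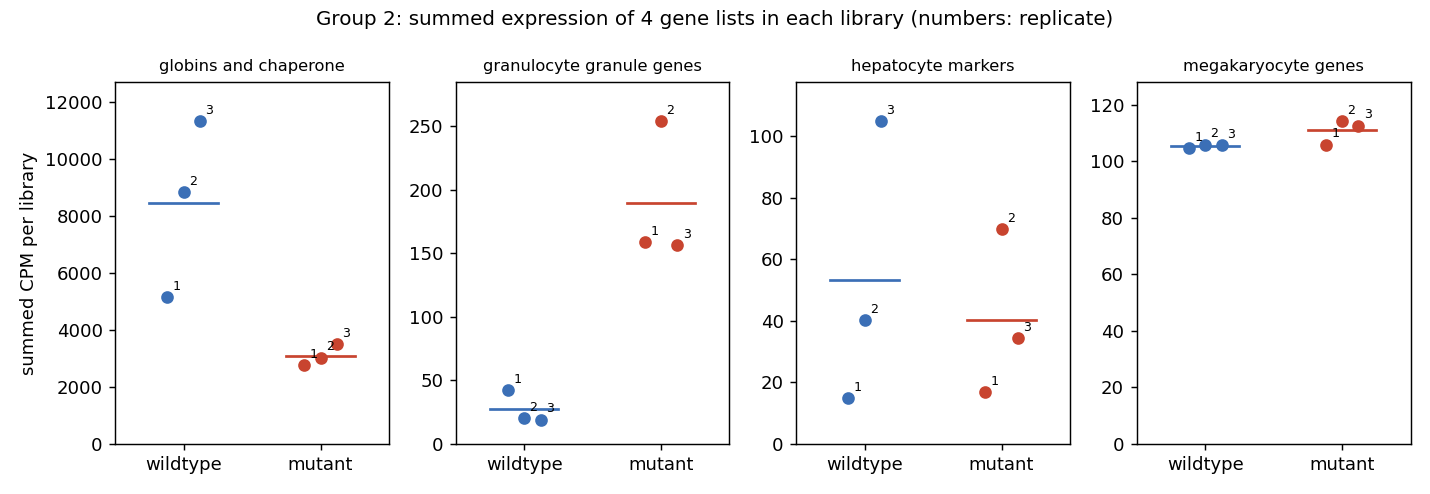
Summed expression (CPM) of 4 gene lists in each wildtype (blue) and mutant (red) library, with replicate numbers beside the points and the mean of each group as a line. Globin sums are lower and granulocyte granule sums higher in all 3 mutant libraries, while hepatocyte marker sums overlap between the genotypes.

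Heme synthesis genes had modest changes, nearly all below 0. Of 17 tested, 16 had changes below 0, the median was -0.37, and 6 fell (35.3%, beside 2.95% of all genes tested). In 13 of the 17 all mutant values lay below all wildtype values, beside 11.8% of all genes tested. As higher edgeR, DESeq2 and limma-voom called 0, with 0 at an unadjusted p under 0.05, and edgeR without wildtype replicate 1 called 1. Alad, the enzyme of the step after Alas2 in the heme pathway, read 897, 883 and 864 CPM in wildtype and 618, 571 and 644 CPM in mutant libraries (-0.53, SE 0.09, adjusted p = 0.00264). Ppox, Fech, Uros, the glycine transporter Slc6a9 and the mitochondrial transporter Abcb10 fell by 0.67, 0.57, 0.80, 0.71 and 0.75. The opposite-strand gene Ccdc24 covers 27.8% of the exonic bases of Slc6a9. Alas2, the rate-limiting erythroid enzyme, read 33.7, 64.2 and 102 CPM in wildtype and 19.99, 25.3 and 24.5 CPM in mutant libraries. Its ranges were separate and the change was -1.53 (SE 0.41), which missed the threshold in edgeR (adjusted p = 0.0878). Alas2 passed it with DESeq2 (0.003933), limma-voom (0.02787) and without wildtype replicate 1 (0.007226). DESeq2 called 10 heme synthesis genes, all lower. The Uros call was lost without 5 libraries in turn (adjusted p at most 0.143). Blvrb, biliverdin reductase B, fell from 367, 366 and 358 CPM to 233, 232 and 236 CPM, a change of -0.64 (SE 0.09) with very little spread inside either group. No call was made among 20 tested genes of iron handling, although 18 had changes below 0, 9 had an unadjusted p under 0.05, and DESeq2 called 3 and limma-voom 6 of them as lower. The transferrin receptor Tfrc had overlapping values (-0.18, adjusted p = 0.539).

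Among 20 erythroid transcription factors 4 fell (20%, beside 2.95% of all genes tested), while 8 of the 20 had changes above 0. As higher edgeR called 0, with 1 at an unadjusted p under 0.05, DESeq2 called 0, and limma-voom and edgeR without wildtype replicate 1 called 1 each. Klf1, which drives the adult beta globin gene, read 840, 871 and 787 CPM in wildtype and 597, 565 and 629 CPM in mutant libraries (-0.48, SE 0.08, adjusted p = 0.00392). E2f2, needed for the last cell divisions of red cell precursors, fell by 0.76 (SE 0.09), from between 126 and 149 CPM to between 74.7 and 84.0 CPM. Zbtb7a, a repressor of fetal globin and of Bcl2l11 in red cell precursors, fell by 0.49, and Nfe2 by 0.30 (adjusted p at most 0.178 without a single library). Gata1 had a change of 0.06 (SE 0.08, adjusted p = 0.718), its values interleaved between the genotypes.

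The red cell membrane skeleton and surface proteins gave 17 and 20 tested genes. In the skeleton 6 fell and 1 rose, with a median of -0.40. The share called was 41.2% in the skeleton, 30% at the surface and 15.8% in organelle clearance, beside 6.27% of all genes tested (2.95% lower and 3.32% higher). Sptb, erythroid beta spectrin, read 1437, 1585 and 1761 CPM in wildtype and 1001, 1113 and 1196 CPM in mutant libraries (-0.53, SE 0.11, adjusted p = 0.0089). Its partner adducins Add1 and Add2 fell by 0.49 and 0.46, the membrane skeleton proteins Epb42 and Epb41 by 0.96 and 0.35 and Stom (stomatin) by 0.40, while Add3 rose by 0.39. At the surface, 5 fell and 1 rose. Ackr1, the Duffy antigen and chemokine receptor, fell from 2.37, 3.21 and 4.25 CPM to 0.77, 0.15 and 0.57 CPM (-2.69, SE 0.46, adjusted p = 0.00334). Its neighbour Cadm3 on the same strand covers 25.7% of the exonic bases of Ackr1. The blood group protease Kel fell by 0.73, Cldn13 by 0.96, the water channel Aqp1 by 1.10 and the potassium channel Kcnn4 by 0.27, and Car1 (carbonic anhydrase 1) rose by 0.37. Among the 19 tested genes of organelle clearance and enucleation 3 fell, which were Ypel4, Map1lc3b and Tent5c (the last with an adjusted p of at most 0.13 without a single library).

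Calls in these lists also rested on single libraries. In the membrane skeleton, where 7 genes were called, 2 remained without mutant replicate 1, 3 without wildtype replicate 2, wildtype replicate 3 or mutant replicate 3, and 4 without mutant replicate 2. At the surface, where 6 were called, 2 remained without wildtype replicate 3, mutant replicate 1 or mutant replicate 3, and 3 without wildtype replicate 2, mutant replicate 2 or low-yield replicate 1. The highest adjusted p in these fits was 0.0531 for Sptb, 0.125 for Epb42, 0.154 for Epb41, 0.142 for Stom, 0.16 for Add3, 0.159 for Aqp1, 0.0631 for Cldn13, 0.18 for Kcnn4 and 0.17 for Car1. Alad, Ppox, Fech, Slc6a9, Abcb10, Blvrb, Klf1, E2f2, Zbtb7a, Add1, Add2, Ackr1, Kel, Map1lc3b and Ypel4 stayed past the threshold in every alternative in which they were tested. Ackr1 and Ypel4 were not tested with the filter at a mean of 5 CPM. Hepatocyte markers, of which 19 were tested, had sums of 14.7, 40.3 and 105 CPM in wildtype and 16.7, 69.8 and 34.4 CPM in mutant libraries. Of the 19, 16 had changes below 0, with a median of -0.41. None was called by edgeR, DESeq2 or limma-voom, 1 had an unadjusted p under 0.05, and edgeR without wildtype replicate 1 called 1 as lower. In group 1, the other set of mice, 4 of 17 tested hepatocyte markers were lower in the mutant, with or without the replicate block. Their part in the globin and heme values was not tested.

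Receptor genes through which these cells receive erythropoietin and stem cell factor moved in opposite directions. Epor, the erythropoietin receptor, read 289, 306 and 284 CPM in wildtype and 234, 217 and 242 CPM in mutant libraries (-0.34, SE 0.08, adjusted p = 0.023). Kit, the receptor of stem cell factor and a gene that is shut off as red cell precursors mature, read 202, 180 and 155 CPM in wildtype and 240, 276 and 226 CPM in mutant libraries (0.47, SE 0.10, adjusted p = 0.0136). Erfe, the erythroid hormone that lowers hepcidin, fell by 0.72. Dusp1, a phosphatase induced by glucocorticoids, fell by 0.69. The Epor call was lost without wildtype replicate 2 and without any 1 of the mutant replicates (adjusted p at most 0.107), that of Erfe without wildtype replicate 2 or mutant replicate 1 (at most 0.0571) and that of Kit without wildtype replicate 2 (0.0602), wildtype replicate 3 (0.0643) or mutant replicate 2 (0.05).

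Of 21 tested genes typical of stem and early progenitor cells, 20 had changes above 0, the median was 0.56, and 6 rose (28.6%, beside 3.32% of all genes tested). Runx1, a transcription factor that sets up blood stem cells, read 72.1, 79.1 and 70.2 CPM in wildtype and 104, 122 and 102 CPM in mutant libraries (0.56, SE 0.09, adjusted p = 0.00265). Gata2, which precedes Gata1 in the red cell lineage, read 4.24, 1.88 and 2.52 CPM in wildtype and 7.46, 7.07 and 7.36 CPM in mutant libraries (1.37, SE 0.31, adjusted p = 0.0163). Fli1, a factor of the megakaryocyte branch, rose by 1.52, Ikzf2 by 1.88 and Bmi1 by 0.44. Spi1, the factor of the myeloid branch, had the one change below 0 (-0.12, SE 0.46, above 0 without wildtype replicate 1 or mutant replicate 3), with 10.2, 2.75 and 5.03 CPM in wildtype and 4.84, 8.65 and 3.41 CPM in mutant libraries. Of the 21, 3 were called without wildtype replicate 2, and the adjusted p of Gata2 reached 0.0791 and that of Bmi1 0.0862 without a single library. Among 16 tested megakaryocyte genes, 5 had changes below 0 and 3 rose (18.8%): Itga2b (CD41) from 9.20, 9.82 and 8.62 CPM to 16.9, 15.4 and 14.7 CPM, Rab27b by 1.82 and Plek by 1.95. The summed level of the megakaryocyte list was 105 to 106 CPM in wildtype and 106 to 114 CPM in mutant libraries. Vwf, the von Willebrand factor, read between 22.1 and 26.3 CPM in wildtype and between 13.8 and 19.3 CPM in the mutant (-0.60, adjusted p = 0.0865). DESeq2 called 5 megakaryocyte genes as higher and 2 as lower, and limma-voom 4 and 2. The count of 3 was 1 without wildtype replicate 3 and 5 without low-yield replicate 3, and the adjusted p reached 0.0555 for Itga2b and 0.148 for Plek.

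Genes of granulocyte granules had the largest median change of any list. All 18 tested members had changes above 0, from 2.04 to 3.50, and 12 rose (66.7%, beside 3.32% of all genes tested). Of the 23 genes listed, 5 had too few counts to be tested. A gene near the floor in wildtype could pass the filter through the mutant libraries alone, so the filter favours members that are high there. The sum of the list was 42.2, 19.8 and 18.98 CPM in wildtype and 158, 254 and 156 CPM in mutant libraries, so that every mutant sum lay above every wildtype sum. Mpo, the myeloperoxidase of neutrophil precursors, read 8.32, 5.52 and 10.1 CPM in wildtype and 38.4, 116 and 45.0 CPM in mutant libraries (3.03, SE 0.58, adjusted p = 0.0339). Prtn3, proteinase 3, read 2.50, 0.81 and 0.85 CPM in wildtype and 5.98, 12.6 and 5.55 CPM in mutant libraries (2.56, SE 0.48, adjusted p = 0.0106). The eosinophil granule genes Prg3 and Ear6 rose by 3.21 and 3.28, Elane, the elastase of neutrophils, by 2.43, and Cebpe, a factor of granule formation, by 3.31. Mutant replicate 2 held the highest Mpo and Prtn3 values.

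These calls depended on single libraries. In place of 12, 1 was called without wildtype replicate 2, 2 without wildtype replicate 3, 5 without mutant replicate 2, 6 without mutant replicate 3 and 7 without low-yield replicate 2. Ear6 stayed past the threshold in all alternatives but the filter at a mean of 5 CPM, which left it untested, whereas the adjusted p of Mpo reached 0.12, that of Prtn3 0.0659, that of Prg3 0.166, that of Elane 0.0517 and that of Cebpe 0.0845. Gm11505 on the opposite strand covers 512 of the 3424 exonic bases of Mpo. Most listed genes of mast cells and basophils, macrophages and endothelium had too few counts to be tested. Of 9 mast cell and basophil genes only Hdc, which makes histamine, was tested, and it rose by 2.41 from between 0.32 and 1.20 CPM to between 2.58 and 4.75 CPM. Mcpt8, Fcer1a, Gzmb, Tpsb2, Cma1 and Mcpt4 had no count in any of the 6 libraries. Of 14 macrophage markers 5 were tested and none called, with sums of 1.297 to 4.23 CPM in wildtype and 1.95 to 7.88 CPM in mutant libraries. One macrophage gene had an unadjusted p under 0.05, and DESeq2 and limma-voom called 1 each. Of 9 endothelial markers 4 were tested, and Pecam1, which blood progenitors also express, rose by 1.78 (adjusted p = 0.0517 without wildtype replicate 2). The endothelial sum was 1.27 to 1.90 CPM in wildtype and 3.92 to 5.87 CPM in mutant libraries. Whether granulocyte precursors in the sample or transcripts of the progenitors themselves gave these values was not tested.

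**Figure D4:**
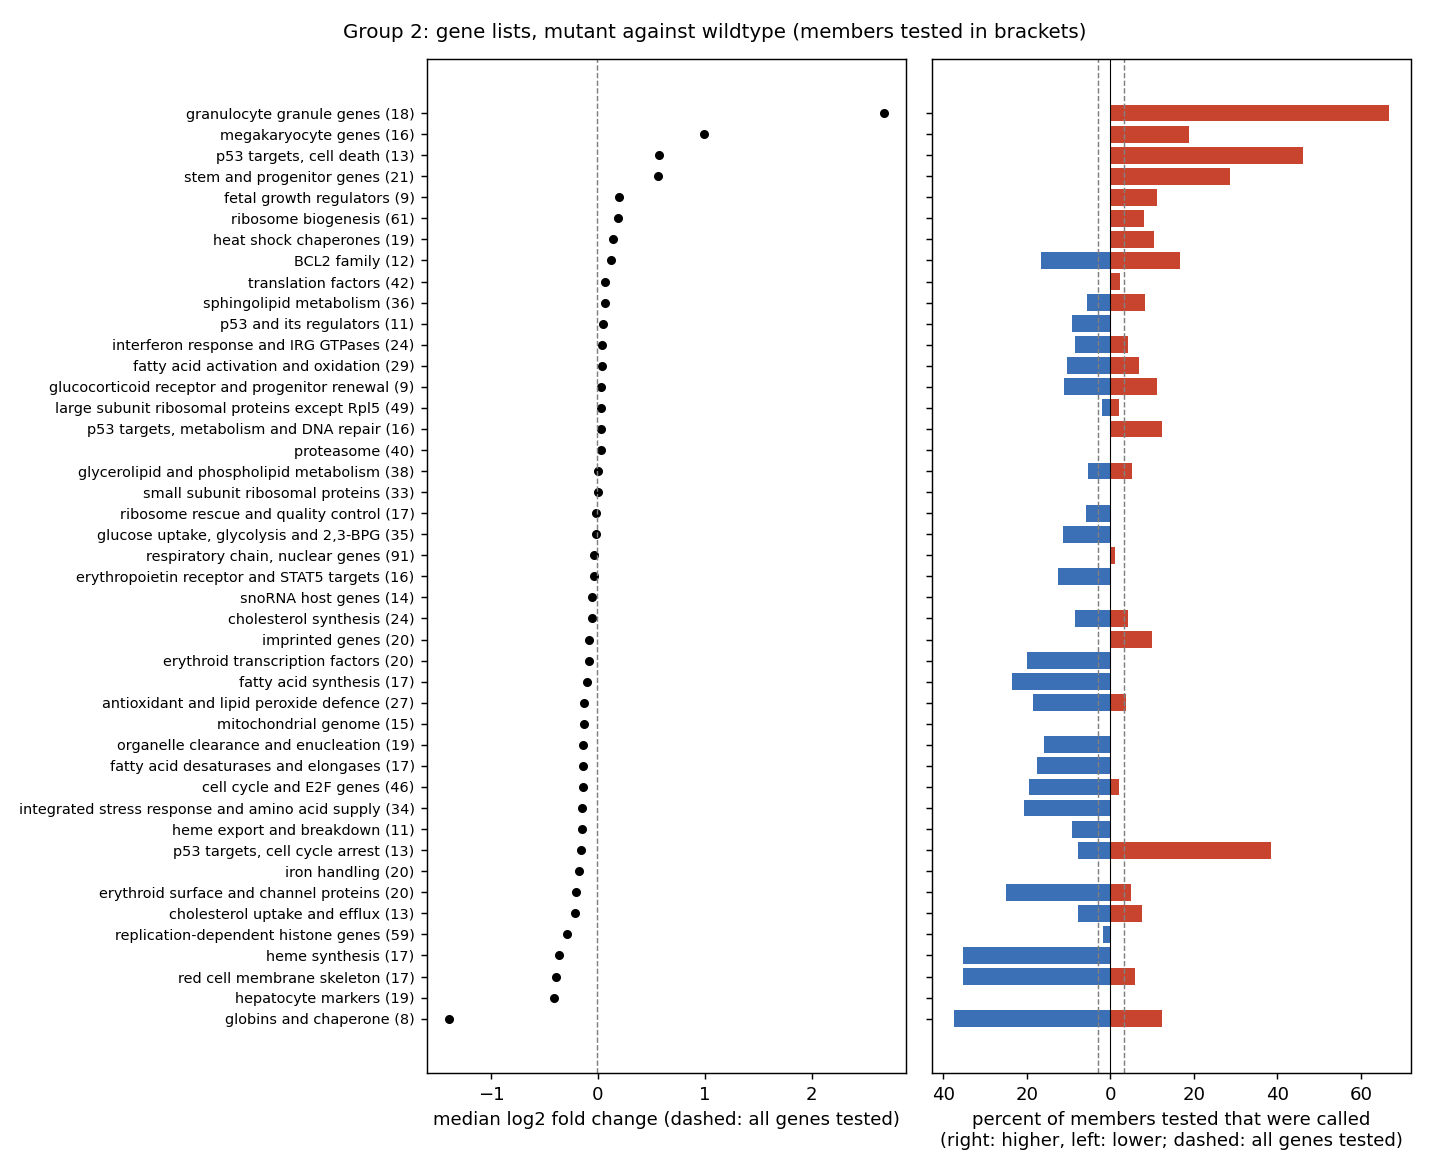
Gene lists with at least 8 members tested in group 2, ordered by the median log2 fold change of their members (left, dots) beside the percentage of members called (right, red bars for higher, blue bars for lower in the mutant). Dashed lines give the values over all genes tested, -0.01 on the left and 3.32% and 2.95% on the right, and granulocyte granule genes (2.68) and globins (-1.39) lie at the ends of the order.

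Among lipid genes, the desaturases, which place double bonds in fatty acids, gave 3 decreases in 17 tested genes of desaturation and elongation. In this list edgeR called 0 as higher, with 3 at an unadjusted p under 0.05, and DESeq2 called 2, limma-voom 1 and edgeR without wildtype replicate 1 also 1 as higher. Scd1, stearoyl-CoA desaturase 1, read 30.4, 52.1 and 40.05 CPM in wildtype and 18.1, 14.5 and 10.9 CPM in mutant libraries (-1.51, SE 0.20, adjusted p = 0.001365), or 2.84-fold lower. Scd2, its paralog, read 940, 1004 and 917 CPM in wildtype and 692, 814 and 606 CPM in mutant libraries (-0.44, SE 0.10, adjusted p = 0.0136). Fads2, which acts on polyunsaturated fatty acids, fell by 0.44. The Scd2 call was lost without wildtype replicate 2, mutant replicate 1 or mutant replicate 3 (adjusted p at most 0.0822) and that of Fads2 without wildtype replicate 2, wildtype replicate 3 or mutant replicate 3 (at most 0.0726).

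In fatty acid synthesis edgeR called 4 of 17 tested genes as lower and 0 as higher, with 3 higher at an unadjusted p under 0.05, and DESeq2 called 1 and limma-voom 3 as higher. Srebf1, the transcription factor that drives these genes, read 350, 330 and 301 CPM in wildtype and 247, 247 and 212 CPM in mutant libraries (-0.47, SE 0.08, adjusted p = 0.00394). Slc25a1, which exports citrate from mitochondria for the making of fatty acids, fell by 0.49 (SE 0.10), Acss1, a mitochondrial acetyl-CoA synthetase, by 0.39 and Mid1ip1, a partner of acetyl-CoA carboxylase, by 0.38. The enzymes that make the fatty acid chain were not called by edgeR and had changes above 0, Fasn with 0.28 (adjusted p = 0.128) and Acaca with 0.21 (adjusted p = 0.0953). Cholesterol synthesis gave 24 tested genes, of which Fdps and Insig1, the anchor that holds back SREBP processing, fell by 0.33 and 0.56 while Mvd rose by 0.57. Calls in this pathway numbered 3 with all libraries and at most 1 without any single wildtype or mutant library. Scarb1, a receptor for lipoprotein cholesterol, fell by 0.37 (SE 0.07) from between 178 and 191 CPM to between 142 and 146 CPM, and Soat1, which esterifies cholesterol, rose by 1.46 from a low level (at most 0.91 CPM in wildtype). Without one library at a time the adjusted p of Acss1 reached 0.0679, that of Mid1ip1 0.129 and that of Soat1 0.141.

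Fatty acid activation and oxidation gave 2 increases and 3 decreases in 29 tested genes. Cpt1a, which carries long-chain fatty acids into mitochondria for oxidation, read 46.6, 49.0 and 46.2 CPM in wildtype and 65.0, 59.1 and 72.2 CPM in mutant libraries (0.47, SE 0.09, adjusted p = 0.0064). Acsl6, an acyl-CoA synthetase of the red cell lineage, fell from 17.2, 16.1 and 13.2 CPM to 5.11, 8.73 and 6.17 CPM (-1.23, SE 0.22, adjusted p = 0.00458). Hadhb rose by 0.30, and Acsl3 and Acadvl fell by 0.45 and 0.39, with adjusted p values of up to 0.147, 0.187 and 0.164 without a single library. The opposite-strand gene Dvl2 covers 42.9% of the exonic bases of Acadvl. In glycerolipid and phospholipid metabolism 2 of 38 tested genes rose and 2 fell. The acyltransferase Agpat3 rose by 0.74 (SE 0.13) and Lpcat1, which remodels phosphatidylcholine, fell by 0.42 (SE 0.08), from between 214 and 221 CPM to between 156 and 172 CPM. Mgll, a lipase of monoacylglycerols, fell by 0.86 and Agpat2 rose by 0.56, with adjusted p values of up to 0.137 and 0.18 without a single library.

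Of 36 tested genes of sphingolipid metabolism, 3 rose and 2 fell. B4galt6, a lactosylceramide synthase, was near the floor in wildtype at 0.32, 0.35 and 0.13 CPM and read 4.03, 3.78 and 2.01 CPM in mutant libraries (3.63, SE 0.50, adjusted p = 0.000764). Spns2, an exporter of sphingosine-1-phosphate, rose from 77.4, 70.0 and 59.4 CPM to 122, 117 and 121 CPM (0.80, SE 0.11, adjusted p = 0.000833), and the ceramide synthase Cers6 rose by 0.75. Sphk1, the kinase that makes sphingosine-1-phosphate, fell from 142, 116 and 111 CPM to 76.4, 79.0 and 66.7 CPM (-0.73, SE 0.14, adjusted p = 0.00822). Mfsd2b, the exporter of sphingosine-1-phosphate used by red cells, fell by 0.34 and lost its call without wildtype replicate 2, mutant replicate 1 or mutant replicate 3 (adjusted p at most 0.129). Without wildtype replicate 1 the sphingolipid calls numbered 8. B4galt6, Spns2, Cers6, Sphk1, Scd1, Srebf1, Slc25a1, Scarb1, Cpt1a, Acsl6, Agpat3 and Lpcat1 stayed past the threshold wherever they were tested (B4galt6 was not, with the filter at a mean of 5 CPM). The share of lipid genes called in these lists, between 10.5% and 23.5%, stood beside 6.27% of all genes tested.

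Ribosomal protein genes other than Rpl5 were close in the genotypes. Of 49 tested genes of the large subunit, 1 rose and 1 fell (4.08% called, beside 6.27% of all genes tested), with a median change of 0.03. Of 33 tested genes of the small subunit none was called, with a median of 0.00 (1 had an unadjusted p under 0.05, DESeq2 called 0 and limma-voom 1). Rpl22l1, a paralog of Rpl22, fell from 22.8, 16.9 and 19.96 CPM to 11.2, 12.2 and 9.32 CPM (-0.88, SE 0.16, adjusted p = 0.00432). Rplp0, of the ribosomal stalk, read 1710, 1659 and 1538 CPM in wildtype and 2502, 2151 and 2739 CPM in mutant libraries (0.59, SE 0.10, adjusted p = 0.00306). Its near-identical pseudogene Gm8730 read 1151, 948 and 924 CPM in wildtype and 529, 447 and 568 CPM in mutant libraries (-0.97, SE 0.11, adjusted p = 0.000361). Summed with its copies, Rplp0 changed by 0.11 (adjusted p = 0.593, an alternative added after the data were seen), so the opposite values of gene and pseudogene add to a total whose change was not past the threshold.

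Genes that build the ribosome had small changes, mostly above 0. Of 61 tested, 53 had changes above 0, with a median of 0.19, and 5 rose (8.2%, beside 6.27% of all genes tested that were called). Polr1a, the largest subunit of RNA polymerase I, read 310, 315 and 295 CPM in wildtype and 417, 404 and 434 CPM in mutant libraries (0.45, SE 0.07, adjusted p = 0.00269). Heatr1, which supports transcription of ribosomal DNA, read 288, 260 and 253 CPM in wildtype and 375, 342 and 393 CPM in mutant libraries (0.47, SE 0.08, adjusted p = 0.00316). Rrp12, Wdr43 and Sbds, which act in subunit maturation, rose by 0.39, 0.35 and 0.31 with adjusted p values of up to 0.131, 0.179 and 0.175 without a single library. The number of calls in this list ran from 2 to 27 over the alternatives: it was 27 under limma-voom (26 higher and 1 lower), 15 without wildtype replicate 1, 11 without mutant replicate 2, 3 without the first low-yield library, and 2 without wildtype replicate 2, wildtype replicate 3, mutant replicate 1 or mutant replicate 3. Of 42 translation factors 1 rose, Eif4g2, an initiation factor for translation without a normal cap complex, from 1226, 1276 and 1356 CPM to 1885, 1597 and 1836 CPM (0.46, SE 0.08). Gtpbp2, a factor that rescues stalled ribosomes, fell by 0.54 (SE 0.09).

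The integrated stress response, through which cells slow translation and raise amino acid supply by way of Atf4, gave 7 decreases in 34 tested genes (20.6%, beside 2.95% of all genes tested). As higher edgeR called 0, with 1 at an unadjusted p under 0.05, and DESeq2, limma-voom and edgeR without wildtype replicate 1 called 1 each. Chac1, a glutathione-degrading target of this pathway, read 0.70, 3.18 and 2.85 CPM in wildtype and 0.13, 0.27 and 0.34 CPM in mutant libraries (-3.17, SE 0.59, adjusted p = 0.00394). Slc7a11, the cystine importer, fell from 2.62, 2.20 and 3.14 CPM to between 0.28 and 1.1 CPM (-2.14, SE 0.48, adjusted p = 0.0158). Slc1a5, a glutamine transporter, and Cars, the cysteinyl-tRNA synthetase, fell by 0.57 and 0.43, and the phosphatase subunits Ppp1r15a and Ppp1r15b, which reverse the response, by 0.39 and 0.32. Atf4 itself had a change of 0.01 (SE 0.09, adjusted p = 0.9825), with overlapping values. The adjusted p reached 0.11 for Slc7a11, 0.0522 for Ppp1r15a and 0.0804 for Ppp1r15b without a single library. The count of 7 was 3 without mutant replicate 1 and 4 without wildtype replicate 3 or mutant replicate 3. The mitochondrial chaperones Hspd1 and Hspa9 rose by 0.38 and 0.33, the 2 calls among 19 tested heat shock chaperones (10.5%, beside 3.32% of all genes tested), and their adjusted p values reached 0.0814 and 0.176 without a single library. Neither was called without wildtype replicate 2 or mutant replicate 3.

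In the cell cycle list, 40 of 46 tested genes had changes below 0, with a median of -0.14, and 9 fell while 1 rose (21.7% called, beside 6.27% of all genes tested). The gene that rose was Ccnd2, a D-type cyclin, which read 121, 119 and 89.2 CPM in wildtype and 203, 156 and 189 CPM in mutant libraries (0.74, SE 0.13, adjusted p = 0.00569). Ccnd3, the D-type cyclin of late red cell precursors, fell from 282, 345 and 375 CPM to 226, 209 and 253 CPM (-0.54, SE 0.10, adjusted p = 0.00626). E2f1 fell by 0.45, Rbl1 by 0.49, the helicase subunit Mcm7 by 0.36, Ccne1 by 0.46, Pcna by 0.39 and Cdc25b by 0.93. Ccnd2, Ccnd3, E2f1, Rbl1 and Mcm7 stayed past the threshold in every alternative. The count of 10 was 5 without wildtype replicate 2, mutant replicate 1 or mutant replicate 2, and the adjusted p of Ccne1, Pcna and Cdc25b reached 0.101, 0.0763 and 0.0805. Replication-dependent histone genes, whose messages mostly lack a polyA tail, leaned the same way. Of 59 tested, 57 had changes below 0, with a median of -0.29, but 1 was called (H2bc21, -1.03) and 7 had an unadjusted p under 0.05. Leaving out low-yield replicate 3 gave 7 calls and leaving out low-yield replicate 2 gave 3, while the 6 compared libraries alone gave 6 and DESeq2 4. No histone gene was called without wildtype replicate 1, wildtype replicate 3, mutant replicate 1, mutant replicate 2 or low-yield replicate 1. The adjusted p of H2bc21 reached 0.226 without mutant replicate 3. Their share of all counts was 2.84% to 3.26% in wildtype and 2.21% to 2.77% in mutant libraries.

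Fn3k, which removes sugars from glycated proteins and is abundant in red cells, had the largest decrease among genes with a mean of at least 2 CPM and separate ranges. It read 2.53, 4.85 and 5.57 CPM in wildtype and 0.24, 0.12 and 0.34 CPM in mutant libraries (-4.16, SE 0.50, adjusted p = 0.000266), or 17.9-fold lower. Among 35 tested genes of glucose uptake, glycolysis and related sugar metabolism, with Fn3k among them, 4 fell (11.4%, beside 2.95% of all genes tested). As higher edgeR called 0, with 6 at an unadjusted p under 0.05, while DESeq2 called 4 higher and 5 lower and limma-voom 7 and 6. Pklr, the pyruvate kinase of liver and red cells, fell from 721, 709 and 705 CPM to 524, 486 and 509 CPM (-0.49, SE 0.08, adjusted p = 0.00232). The opposite-strand gene Hcn3 covers 711 of the 3236 exonic bases of Pklr. The glucose transporter Slc2a1 fell by 0.49 and Slc16a10 by 0.43, with adjusted p values of up to 0.16 and 0.0602 without a single library. Without wildtype replicate 1 the count of glycolysis calls was 13 (9 higher and 4 lower), and it was 2 without wildtype replicate 3, mutant replicate 1 or mutant replicate 3.

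Of 27 tested antioxidant genes 5 fell and 1 rose (22.2% called, beside 6.27% of all genes tested). Prdx2, the main peroxiredoxin of red cells, read 981, 943 and 935 CPM in wildtype and 694, 608 and 768 CPM in mutant libraries (-0.47, SE 0.12, adjusted p = 0.0399). The Nrf2 targets Nqo1, Srxn1 and Gclm fell by 1.03, 0.79 and 0.33 and Txnrd2 by 0.44, and Gpx3 rose by 2.10 from at most 0.61 CPM. All 6 calls were lost without 1 or another library (adjusted p up to 0.139 for Prdx2, 0.0854 for Nqo1, 0.0752 for Srxn1, 0.0997 for Gclm, 0.0547 for Txnrd2 and 0.0901 for Gpx3), and the count was 1 without wildtype replicate 3, 2 without mutant replicate 3 and 3 without mutant replicate 1 or mutant replicate 2. In the interferon list, 2 GTPases fell in 24 tested genes, where 2.95% of all genes tested fell: Irgm2 from 3.38, 6.64 and 11.6 CPM to 1.21, 1.16 and 1.37 CPM (-2.56, SE 0.42, adjusted p = 0.00341) and Igtp, whose exons it overlaps in part, from between 6.36 and 8.82 CPM to between 2.72 and 3.38 CPM (-1.25, SE 0.22). Bst2, an antiviral membrane protein, rose by 0.75 (adjusted p at most 0.0896 without a single library).

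Imprinted genes gave 2 calls in 20 tested (10%) and regulators of fetal growth 1 in 9 (11.1%), beside 6.27% of all genes tested, and 11 of the 20 imprinted genes had changes below 0. Peg10, an imprinted gene derived from a retrotransposon, read 31.6, 22.6 and 27.0 CPM in wildtype and 86.2, 99.1 and 87.2 CPM in mutant libraries (1.75, SE 0.14, adjusted p = 1.42e-05). Grb10, an imprinted inhibitor of growth factor signalling, rose from 483, 449 and 465 CPM to 667, 610 and 648 CPM (0.46, SE 0.08). These were the imprinted genes called. Hmga2, a chromatin protein of fetal growth and a target of the let-7 microRNAs, read 8.10, 6.93 and 5.32 CPM in wildtype and 24.0, 22.3 and 19.8 CPM in mutant libraries (1.71, SE 0.19, adjusted p = 0.00021). All of these stayed past the threshold in every alternative. Genes of the mitochondrial genome (15 tested), nuclear genes of the respiratory chain (91 tested, of which Ndufaf6 rose) and the proteasome (40 tested) had medians of -0.13, -0.03 and 0.03. Ndufaf6, which acts in the assembly of complex I, lost its call without 5 libraries in turn (adjusted p at most 0.141), and the count of calls among respiratory chain genes ran from 0 to 4 over the alternatives. In the first of these edgeR, DESeq2 and limma-voom called 0 genes and 0 had an unadjusted p under 0.05. In the proteasome edgeR called 0 with 4 at an unadjusted p under 0.05, DESeq2 called 2 and limma-voom 1.

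Other genes were named for the size of their change or their level, not as members of a list. Vim, the intermediate filament vimentin, read 7.53, 5.32 and 4.43 CPM in wildtype and 38.4, 27.8 and 27.7 CPM in mutant libraries (2.46, SE 0.42, adjusted p = 0.0183). Fat1, a giant cadherin, rose by 2.44, the protocadherin Pcdh7 by 2.21, the formin Fmnl2 by 2.19 and the basement membrane protein Nid1 by 2.17. Hecw1, a ubiquitin ligase, rose from 2.02, 0.55 and 2.14 CPM to 9.88, 8.996 and 10.7 CPM (2.63, SE 0.30, adjusted p = 0.000266). Parm1 and Rab44 rose by 2.60 and 2.27. Among abundant genes, Actg1, cytoplasmic gamma actin, rose by 0.50 and the splicing factor Prpf8 by 0.31, with Prrc2c at 0.39. In fits that lacked 1 library the adjusted p of Vim reached 0.0896, that of Nid1 0.0604, that of Rab44 0.0791, that of Actg1 0.0945, that of Prpf8 0.0952 and that of Prrc2c 0.0899, and Parm1 had 0.0712 under limma-voom.

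Among other large decreases, Tns1, a focal adhesion protein, read 85.4, 99.8 and 105 CPM in wildtype and 20.5, 24.8 and 20.1 CPM in mutant libraries (-2.15, SE 0.30, adjusted p = 0.00641). Stard10, a phospholipid transfer protein, was even in both groups, at 40.2, 41.7 and 42.3 CPM in wildtype and 9.31, 13.2 and 9.66 CPM in mutant libraries (-1.96, SE 0.24, adjusted p = 0.00134). Ypel4, of the yippee-like family, read 3.38, 6.96 and 10.98 CPM in wildtype and 0.74, 1.89 and 1.34 CPM in mutant libraries (-2.48, SE 0.46, adjusted p = 0.00755). Btnl10, the connexin Gjb2, the interleukin-33 receptor Il1rl1, Gfap and Apol8 fell by 1.74, 1.66, 1.64, 1.56 and 1.32. Arrb1, an arrestin, read 824, 988 and 983 CPM in wildtype and 628, 588 and 669 CPM in mutant libraries (-0.57, SE 0.10, adjusted p = 0.00345). Apol8 lost its call without any 1 of the mutant replicates (adjusted p at most 0.0746) and Tns1 without mutant replicate 1 (0.0501).

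Close to Rpl5 on chromosome 5, 5 of the 35 other genes tested within 1 Mb on each side were called (14.3%), against 6 of 99 within 5 Mb (6.06%) and 17 of 374 within 20 Mb (4.55%). The share called was 5.3% over chromosome 5 and 6.27% over all genes tested. The 5 include the overlapping Slc26a1 and Idua and the adjacent Tmed5 and Ccdc18, so they may not be independent. The region around Rpl5 was looked at after its values had been seen. Slc26a1, a sulfate and oxalate exchanger whose gene lies inside the span of Idua on the other strand and shares 141 exonic bases with it, read 238, 238 and 217 CPM in wildtype and 81.0, 99.6 and 80.2 CPM in mutant libraries (-1.41, SE 0.15, adjusted p = 0.000497). Idua, a lysosomal iduronidase, went the other way, from 1.65, 2.40 and 2.27 CPM to 8.67, 8.19 and 6.74 CPM (1.87, SE 0.23, adjusted p = 0.000379). Tmed5, of the secretory pathway, rose from 35.1, 30.6 and 31.4 CPM to 55.9, 56.7 and 50.6 CPM (0.75, SE 0.09), and its neighbour Ccdc18 fell by 0.75. Rnf212, a meiotic recombination gene, was read at 0.66, 0.66 and 1.27 CPM in wildtype and at 0, 0 and 0.15 CPM in mutant libraries. Golga3 rose by 0.28 (adjusted p = 0.049). In group 1, Slc26a1, Idua, Tmed5 and Ccdc18 had changes of -1.65, 1.55, 0.87 and -0.71. Rnf212 had one of -1.26 there that was not past the threshold (adjusted p = 0.255), with mutant replicate 1 (0.47 CPM) above wildtype replicate 1 (0.35 CPM). Whether the mutant chromosome differs from the wildtype one in this region beyond Rpl5 was not tested. Golga3 lost its call without any 1 of the 9 libraries but wildtype replicate 1 (adjusted p at most 0.17), Ccdc18 without wildtype replicate 3 or mutant replicate 1 (at most 0.0641) and Rnf212 without the same libraries (at most 0.065).

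**Figure D5:**
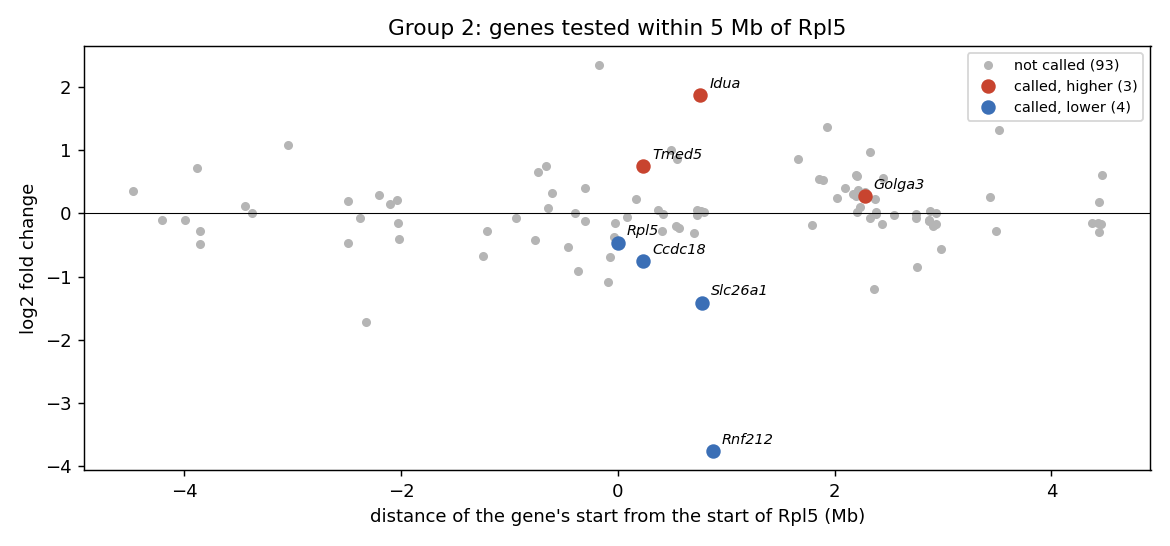
Log2 fold change in group 2 (vertical axis) of each gene tested within 5 Mb of Rpl5, placed by the distance of its start from that of Rpl5 in Mb (horizontal axis). Called genes are red where higher (3) and blue where lower (4, Rpl5 included), all others grey, and 5 of the called neighbours lie within 1 Mb on the right.

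The mutant and wildtype libraries of group 1 were sequenced from polyA RNA and share no library with group 2. There, 1766 of 14048 tested genes were called (12.6%), and 2863 (20.4%) in the fit with the replicate number as a block. Same-numbered libraries of group 1 deviated together only in part. Wildtype replicate 3 correlated better with mutant replicate 2 (0.23) than with mutant replicate 3 (0.146). No label gives a pairing, so values with the block rest on a pairing that is not established. Of the 942 genes called in group 2, 934 were tested in group 1, 926 had the same sign there, and 651 were called in both, which is 69.1% of the group 2 calls and 36.9% of the group 1 calls. With the block in group 1, 797 were called in both (84.6% and 27.8%). Changes in group 1 were 3.799 for Cdkn1a, 2.58 for Zmat3, 1.60 for Ccng1 and 4.43 for Eda2r, beside 3.82, 2.48, 1.44 and 3.67 in group 2. They were -1.995 for Hba-a2, -1.11 for Hbb-bs, -0.47 for Alad, -0.51 for Klf1 and -1.83 for Scd1, beside -2.12, -1.33, -0.53, -0.48 and -1.51 in group 2. Hbb-bh1, which rose in group 2, had a change of 0.01 in group 1 (0.50 with the block, SE 0.90, adjusted p = 0.779). The granulocyte granule genes had a median change of 0.50 in group 1. Of 21 tested, edgeR without the block, DESeq2 and limma-voom called 0, and 0 had an unadjusted p under 0.05. With the block the median was 0.58 and 7 rose. Set beside the wildtype library of the same number, each mutant library of group 1 read higher for Mpo, at 26.2 and 68.7, 160 and 493, and 138 and 259 CPM. With the block its change was 1.31 (SE 0.15, adjusted p = 0.005359). Prtn3 and Elane rose by 1.05 and 0.74 in the same fit. The difference between the groups in their genotype effect was not past the threshold for Mpo (edgeR, unadjusted p = 0.225), Prg3 (0.203) or Elane (0.262), each with an adjusted p of 1. With the block, the difference was above 0 for all 12 granule genes called in group 2, which were chosen for being high there, from 1.51 for Prtn3 to 2.60 for Ms4a3. The unadjusted p was under 0.05 for 10 of the 12 and lowest for Lyz2 (2.34, unadjusted p = 0.0003394, adjusted p = 0.361) and Camp (2.19, unadjusted p = 0.001619, adjusted p = 0.782). None of the 12 passed the threshold in this test over all genes. Because of how the 12 were chosen, a difference above 0 was favoured in advance, so these counts cannot decide whether the groups differ.

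A test of the difference of the genotype effect between the groups of mice, over 15954 genes, called 3 (0.0188%), while 342 had an unadjusted p under 0.05. The 3 are Gm8730, Gm9625 and Gm6278, all copies of Rplp0 elsewhere in the genome that share 62.8%, 46.5% and 50.1% of their 31-base words with it. Gm9625 read 142, 112 and 120 CPM in wildtype and 67.2, 53.7 and 69.8 CPM in mutant libraries of group 2 (-0.97), and Gm6278 read between 36.1 and 38.1 CPM in wildtype and between 16.8 and 21.3 CPM in mutant libraries (-0.91). In group 1 the changes of Gm8730, Gm9625 and Gm6278 were 0.16, 0.21 and 0.21, and that of Rplp0 was 0.13. With the replicate block 5 were called, these 3 with Taf1d, a subunit of an RNA polymerase I factor (0.75, adjusted p = 0.0403), and the processed pseudogene Gm10259, which had means of 84.7 and 79.2 CPM in wildtype and mutant libraries of group 2 and 4.06 and 0 CPM in those of group 1, too few to be tested there. With the copies summed into Rplp0 no gene was called in this test. These 3, with Gm14165, a further copy, and with Gatc, Nbdy, AC099860.1 and 4933434E20Rik, are the 8 group 2 calls of opposite sign in group 1. The groups of mice differ in the kind of RNA as well as in the mice, and the 2 cannot be told apart.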

How the data were processed

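RNA sequencing (151 bp paired reads) was analysed from gene tables of expected counts deposited by the authors, one value per gene and library, not normalised. Per the submitters' processing notes the tools were cutadapt 2.3, STAR 2.7.8a, RSEM 1.3.3, FastQC 0.11.8 and MultiQC 1.7, with GRCm38. Their parameters and the use of strand are not given in the sources used here. The deposited values were already whole numbers. The table also held 5 reporter rows, with 1 count in all, which were left out, and 0 value columns lacked a library.

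Differences between genotypes came from edgeR 4.0.16 (R 4.3.3), with TMM scaling, filterByExpr, robust quasi-likelihood F test (two-sided), Benjamini-Hochberg adjustment over all genes tested, threshold 0.05. One fit used the 9 libraries of group 2, with the 3 low-yield libraries contributing to the spread, the scaling and the choice of genes tested. Group 1 was fitted alone (6 libraries), and the interaction over 12. In group 1 the deviations of same-numbered libraries from their group means correlated at 0.441, 0.186 and 0.146, all above the limit of 0.1 set for taking the number as a pairing, so values with it as a block stand beside those without it. Wildtype replicate 3 correlated better with mutant replicate 2 (0.23), and nothing in the labels says what the number marks. SE is the absolute log2 fold change over the square root of F, and CPM are after TMM. In group 2 the libraries of a genotype varied with a biological coefficient of 19.9%. With 24954324 to 44827821 counts per library, the spread between libraries, not depth, sets the precision of all but the lowest genes.

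Members and the 50 gene lists were chosen with earlier results of these data known. Named genes are Rpl5, the 15 called genes with the largest change in each direction that have a mean of at least 2 CPM and separate ranges (predicted genes and pseudogenes passed over), the 8 most abundant called genes in each direction, up to 4 members per list and direction by p, genes called in the interaction, and other list members by value only. Alternatives were RLE and upper-quartile scaling, no filter or a mean of at least 5 CPM, DESeq2 1.42.0, limma 3.58.1 (voom with quality weights), the older quasi-likelihood mode, protein-coding genes only, a replicate block, the 6 libraries alone and each library left out. Y-linked transcripts as a covariate and summed near-identical copies were added after the data were seen. Annotation was GENCODE (GRCm38), which holds 99.5% of the table's genes, and promoters are from RefSeq, matched by symbol for 10099 of 15024 tested genes.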

Additional observations from a re-analysis of the deposited data

Results flagged for a closer look

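The test of the difference between the groups of mice picked out 3 genes, in each of which the mutant was lower than the wildtype in group 2 and not in group 1. The genotype effect in group 2 minus that in group 1 was -1.106 for Gm8730, -1.158 for Gm9625 and -1.105 for Gm6278 on the log2 scale. The adjusted p was 0.003432 for Gm8730 and Gm9625 and 0.03111 for Gm6278. Each is a processed copy of Rplp0, whose own difference was 0.48 in the other direction (unadjusted p = 0.000955, adjusted p = 1). With the copies summed, no gene was called.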

How the results depend on the processing

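None of the 942 called genes changed sign, but the split of calls in some lists did: glycolysis went from 0 higher and 4 lower to 9 and 4 without wildtype replicate 1 and to 7 and 6 under limma-voom, and cholesterol synthesis from 1 and 2 to 1 and 0 without wildtype replicate 1. Of genes that were not called, Spi1 (-0.12 in the reported fit) read 0.08449 under limma-voom and from -0.5364 to 0.459 with 1 library left out, Myc (-0.05) from -0.1895 to 0.1301 and Rpl11 (0.05) from -0.02222 to 0.187. The 942 group 2 calls became 1452 with DESeq2 and 2000 with limma-voom, with 800 and 1069 higher (499 in the reported fit) and 931 lower under limma-voom (443 in the reported fit). With 1 library left out, group 2 calls ran from 425 to 1323, the higher ones from 205 to 773 and the lower ones from 172 to 550. Group 1 calls (1766) ran from 753 to 1729 and interaction calls from 2 to 3. The 3 interaction calls became 13 with DESeq2, 0 among protein-coding genes and 0 with near-identical copies summed. The 6 libraries alone gave 774 group 2 calls.

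In the check of pairing, replicates 1, 2 and 3 share only a number between genotypes in group 2: the deviations of same-numbered libraries from their group means correlated at 0.241, 0.173 and 0.0245, and wildtype replicate 3 correlated best with mutant replicate 2 (0.116). With the replicate block 1309 genes were called in group 2, 932 of them among the 942, and 2863 in group 1 and 5 in the interaction. Of 176 named called genes 174 stayed called under the block. With 3 libraries a side and a coefficient of variation of 19.9%, a change that misses the threshold is not shown to be absent, least of all below 1 CPM.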
